A study of Mus musculus with 8 samples.

Results

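The genes of Polycomb repressive complex 2 (PRC2) were followed in iGBs, which are germinal center-like B cells made in culture, with and without the arginine methyltransferase Prmt5. The set was fixed by symbol as 10 genes, Ezh1, Ezh2, Eed, Suz12, Rbbp4, Rbbp7, Jarid2, Mtf2, Phf19 and Aebp2, of 39017 in the gene table, and each symbol was found there. All 10 had a mean normalized count of at least 10, so all 10 were among the 16250 genes tested. A normalized count is the number of reads on the exons of a gene divided by a size factor for its library.

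Splenic B cells of C57BL6/J mice were grown for 4 days on 40LB cells, a fibroblast line that makes CD40L and BAFF, with IL-4 at 1 ng per mL. Per the paper, elutriation then removed the B cells from the 40LB cells before RNA was extracted. Prmt5-null iGBs (n = 4) carried Prmt5F/F Cγ1-cre, and control iGBs (n = 4) carried Cγ1-cre alone, so both genotypes expressed the recombinase. This Cre is made from the Cγ1 immunoglobulin locus once B cells are activated, so Prmt5 is excised in activated and not in resting B cells. The paper describes 4 independent biological samples per genotype. Values are given in the deposited order, which is PRMT5-10617, PRMT5-10618, PRMT5-10770 and PRMT5-10771 for Prmt5-null. For control it is CTRL-10650, then CTRL-10370, then CTRL-10596 and last CTRL-10597. Mice of the study as a whole were 2 to 4 months old and of both sexes, and no label gives these for a single library. Uty, a gene of the Y chromosome, had 1828 to 2544 normalized counts across all libraries, so each held RNA of male cells.

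PRC2 places methyl groups on lysine 27 of histone H3, a mark of silenced genes. Its catalytic subunit is either Ezh2, which dominates in dividing cells, or Ezh1, which is the more usual form in resting cells. Eed reads the mark and stimulates the enzyme, Suz12 holds the complex together, and Rbbp4 and Rbbp7 are histone-binding proteins that also serve other chromatin complexes. Jarid2 and Aebp2 define one form of the complex, and the Polycomb-like proteins Mtf2 and Phf19 another. Ezh2 is abundant in germinal center B cells and is needed for the germinal center reaction.

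Recovered reads per library ranged from 36731721 to 50366174 (median 44996131). Prmt5 itself had 1291, 1994, 1060 and 1808 normalized counts in Prmt5-null libraries and 13087, 11084, 11657 and 11267 in control libraries, a log2 fold change of -2.98. The genotypes separated on the first principal component, with 34.0% of the variance. B cell genes were abundant in all libraries (Ms4a1 had a mean of 46741 normalized counts in control and 43984 in Prmt5-null), while of the T cell genes Cd3e was at 0 in all 8 and Lck had means of 730 in control and 384 in Prmt5-null. Of 10 fibroblast markers, 8 passed the filter on low values and all 8 were higher in Prmt5-null iGBs, 3 of them called (Col1a2, Col3a1 and Sparc). Among all tested genes 6.48% were called, in either direction. The summed level of the 10 ran from 3400 to 6070 normalized counts in control and from 5456 to 9563 in Prmt5-null libraries. None of the 10 was at 0 in every library, and Postn was at 0 in 6 of them. In bulk RNA, fewer cells of a type and less RNA per cell cannot be told apart.

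Transcripts of the catalytic subunit Ezh2 and of Eed rose modestly in Prmt5-null iGBs, by 1.36-fold and 1.27-fold. No PRC2 gene was lower at an adjusted p below 0.05 in limma. None of the 10 genes reached the call used for the whole table, an adjusted p below 0.05 in limma with a change of at least 1.5-fold, which 6.48% of all tested genes met. At an adjusted p below 0.05 with any fold, 2 of 10 were higher and 0 of 10 were lower, where 6.51% of all tested genes were higher and 7.33% lower. By estimate alone, 5 genes were higher and 5 lower, with a median log2 fold change of 0.09 beside 0.00 for all genes tested. At an unadjusted p below 0.05, limma gave 4 genes, Ezh2, Eed, Aebp2 and Ezh1. edgeR and DESeq2, run on the recovered reads, each gave 2 genes at an adjusted p below 0.05 and 0 at 1.5-fold.

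**Figure D1:**
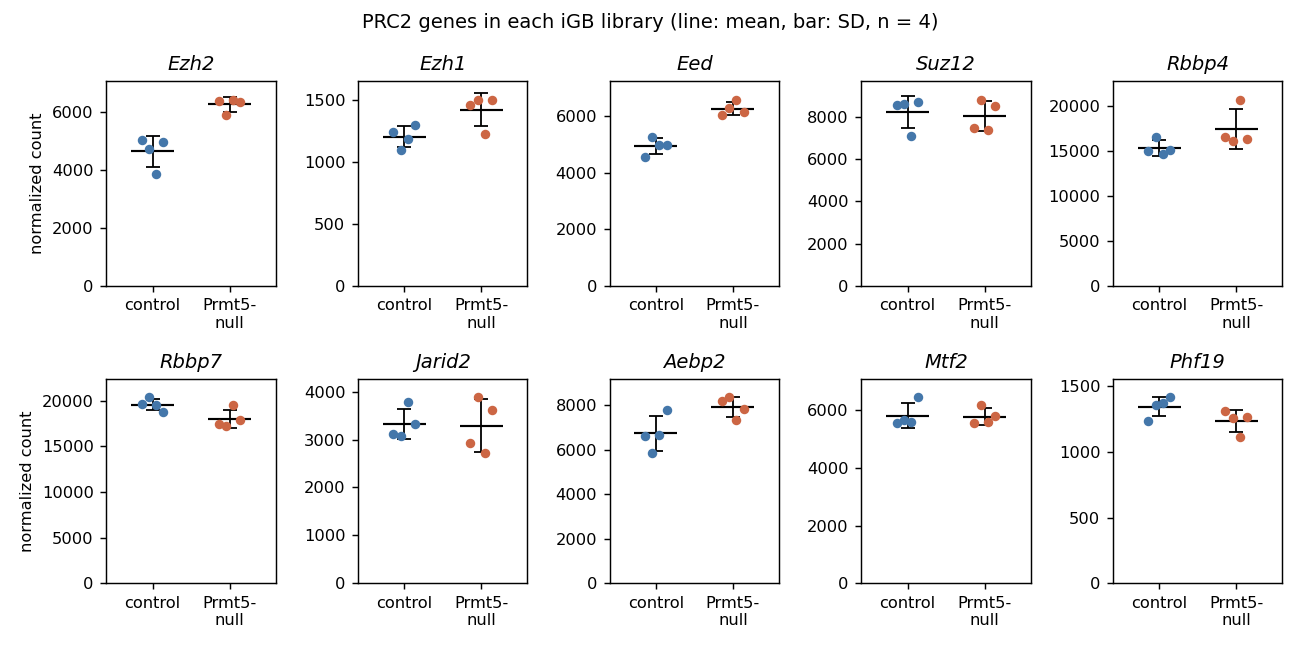
Normalized counts of the 10 PRC2 genes, with 1 point per library, in control (left, n = 4) and Prmt5-null (right, n = 4) iGBs; lines are means and bars SD, and each axis starts at 0. For Ezh2 and Eed all 4 Prmt5-null points lie above all 4 control points, and for the other 8 genes the genotypes overlap.

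Ezh2, the methyltransferase of dividing cells (GRCm38 chr6:47530139-47595341, minus strand), had 5006, 4699, 3854 and 4941 normalized counts in control libraries. In Prmt5-null libraries it had 6381, 5866, 6411 and 6333. The lowest Prmt5-null library was above the highest control library, and CTRL-10596 was the lowest of the 8. The means were 4625 ± 531 and 6248 ± 256 (SD, n = 4 each), a log2 fold change of 0.44 (SE 0.09, 95% interval 0.25 to 0.64, adjusted p = 0.00709 from limma). Omitting any single library gave log2 fold changes from 0.36 to 0.48 and limma adjusted p of at most 0.0264.

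Eed, which binds the finished mark (chr7:89954654-89980983, minus strand), had 4565, 5282, 4973 and 4971 normalized counts in control and 6046, 6303, 6589 and 6153 in Prmt5-null libraries. Here too the genotypes did not overlap. The means were 4948 ± 294 and 6273 ± 236 (SD, n = 4 each), and the log2 fold change was 0.34 (SE 0.07, 95% interval 0.19 to 0.50, adjusted p = 0.00759 from limma). In an exact two-sided permutation test of the log2 values, Ezh2 and Eed each gave p = 0.0286, the smallest that 4 against 4 libraries allow. Ezh2 and Eed made 2 of 10 members with all Prmt5-null libraries above all control libraries, which 9.67% of all tested genes showed, and 0 of 10 members had all below, which 10.2% showed.

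The estimates of the 8 tested fibroblast markers had the same sign as those of Ezh2 and Eed, although 3 of the 8 passed. Without the library highest in these markers in each genotype, PRMT5-10617 and CTRL-10650, the limma adjusted p of Ezh2 was 0.0369 and that of Eed 0.0515, so Eed no longer passed 0.05 with 3 libraries per genotype, while its log2 fold change was 0.32. The part of fibroblast RNA in the PRC2 levels was not tested.

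Ezh1, the alternative catalytic subunit (chr11:101191115-101226463, minus strand), had 1239, 1097, 1183 and 1294 normalized counts in control and 1463, 1503, 1222 and 1499 in Prmt5-null libraries. In 3 of 4 Prmt5-null libraries it lay above every control library, and PRMT5-10770 lay among the controls. Its log2 fold change of 0.24 (SE 0.09) did not pass (adjusted p = 0.115 from limma), although it did without PRMT5-10770, at 0.31 with adjusted p = 0.0288. Whether the changes of Ezh2 and Ezh1 differed from each other was not tested.

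Suz12, the scaffold of the complex (chr11:79993106-80034123, plus strand), showed no such shift. It had 8562, 8608, 7098 and 8708 normalized counts in control and 7487, 8823, 7367 and 8506 in Prmt5-null libraries. The ranges overlapped almost wholly, with a log2 fold change of -0.03 (95% interval -0.23 to 0.16, adjusted p = 0.840 from limma). That interval leaves room for a rise of at most 1.12-fold or a fall to 0.851 of control.

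Rbbp4 and Rbbp7, the 2 histone-binding subunits, had estimates of opposite sign, and neither passed. Rbbp4 (chr4:129307100-129335370, minus strand) had 14994, 16646, 14689 and 15143 normalized counts in control and 16620, 16159, 20759 and 16389 in Prmt5-null libraries, with PRMT5-10770 alone above the control range. Its log2 fold change was 0.18 (SE 0.09, adjusted p = 0.217 from limma). Rbbp7, on chromosome X (chrX:162760402-162779092, plus strand), had 19602, 20372, 19552 and 18816 normalized counts in control and 17439, 17283, 19493 and 17865 in Prmt5-null libraries. In 3 of 4 Prmt5-null libraries it lay below every control library, with a log2 fold change of -0.12 (SE 0.07, adjusted p = 0.285 from limma).

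**Figure D2:**
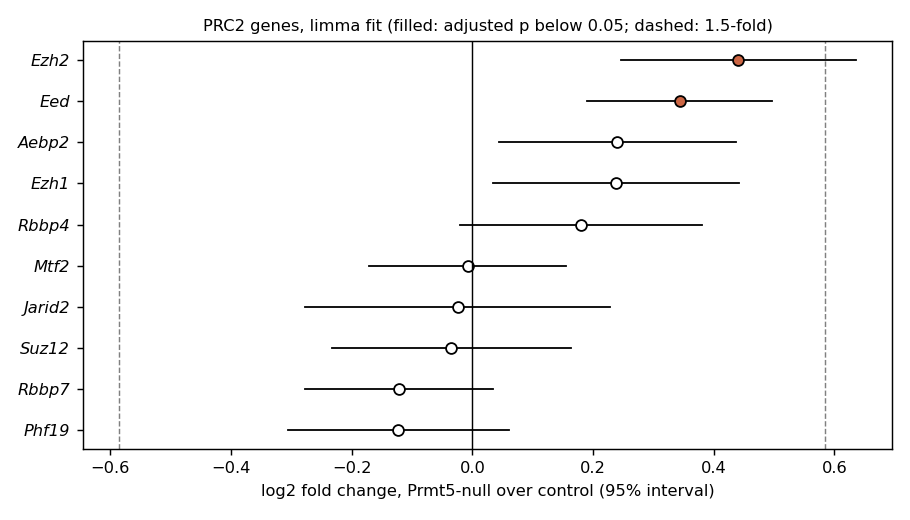
Log2 fold change of each PRC2 gene, Prmt5-null over control, from limma with its 95% interval (n = 4 libraries per genotype); filled points have an adjusted p below 0.05 and dashed lines mark 1.5-fold. Ezh2 at 0.44 and Eed at 0.34 are filled, and of the 10 intervals only that of Ezh2, with its upper end at 0.64, crosses a dashed line.

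Of the accessory subunits, Aebp2, a DNA-binding zinc finger protein (chr6:140622663-140678472, plus strand), had the highest estimate. It had 6618, 5857, 6650 and 7798 normalized counts in control and 8172, 8352, 7322 and 7835 in Prmt5-null libraries. CTRL-10597 reached the Prmt5-null range, and the log2 fold change of 0.24 (SE 0.09) gave an adjusted p of 0.10 from limma. Without CTRL-10597 the log2 fold change was 0.31 and the limma adjusted p was 0.0407.

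Jarid2, which helps recruit the complex and is itself a substrate of it (chr13:44729474-44921643, plus strand), varied most of the 10 genes between Prmt5-null libraries. It had 3117, 3072, 3775 and 3329 normalized counts in control and 2936, 3879, 2728 and 3619 in Prmt5-null libraries, so that Prmt5-null libraries were both the lowest and the highest of the 8. Its coefficient of variation in Prmt5-null iGBs, 16.6%, was the highest of the 10 genes in either genotype, and its log2 fold change was -0.02 (95% interval -0.28 to 0.23, adjusted p = 0.919 from limma).

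The Polycomb-like proteins, which bind unmethylated CpG-rich DNA and tether the complex to it, had small differences. Mtf2 (chr5:108065674-108109004, plus strand) had 5547, 5658, 5557 and 6426 normalized counts in control and 5538, 6168, 5574 and 5765 in Prmt5-null libraries. Its log2 fold change was -0.01 (95% interval -0.17 to 0.16, adjusted p = 0.964 from limma). Phf19 (chr2:34893757-34914026, minus strand) had 1240, 1355, 1373 and 1416 normalized counts in control and 1309, 1259, 1114 and 1265 in Prmt5-null libraries, with PRMT5-10770 alone below the control range. Its log2 fold change was -0.12 (95% interval -0.31 to 0.06, adjusted p = 0.363 from limma).

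To compare genes with one another, levels were divided by the exonic length of each gene. In control iGBs, Rbbp7 was highest, at 6733 ± 218 normalized counts per kb (SD, n = 4), and Ezh1 lowest, at 162 ± 11.3. Between them, in falling order, came Rbbp4 at 1758, Suz12 at 1667, Eed at 1293, Mtf2 at 1017, Ezh2 at 693, Aebp2 at 683, Jarid2 at 342 and Phf19 at 267 normalized counts per kb. Rbbp4 and Suz12 overlapped between libraries, as did Ezh2 and Aebp2, so the order within these pairs is not larger than the spread. Every other neighbouring pair was apart in all control libraries.

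The order in Prmt5-null iGBs was the same except that Eed, at 1639 ± 61.6 normalized counts per kb, drew level with Suz12, at 1627 ± 147, with overlapping libraries. Division by the longest transcript in place of all exonic bases placed Eed above Suz12 and Ezh2 above Mtf2 already in control, so these orders depend on the length used. Ratios between genotypes do not.

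**Figure D3:**
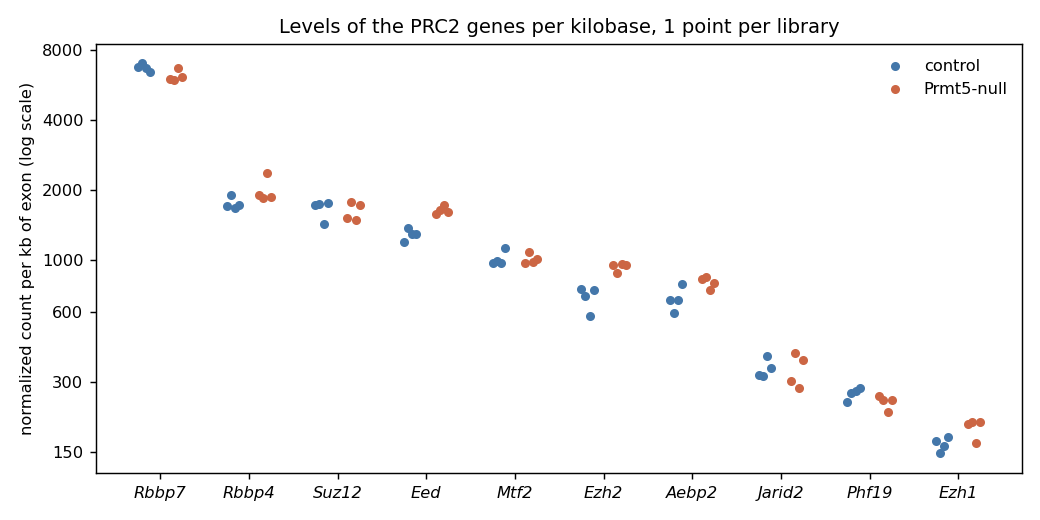
Normalized counts per kb of exon, on a log axis, for the 10 PRC2 genes ordered by their control mean, with 1 point per library and 4 libraries per genotype. Rbbp7 stands highest in both genotypes, Ezh1 lowest, and the Prmt5-null points of Ezh2 and Eed sit above their control points.

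Within each library, the ratio of Ezh2 to Ezh1 per kb was 4.29 ± 0.49 in control and 4.94 ± 0.64 in Prmt5-null iGBs (SD, n = 4 each), with overlapping libraries. Ezh2 to Suz12 was 0.415 in control and 0.580 in Prmt5-null, and Eed to Suz12 was 0.781 and 1.01, and in neither did the genotypes overlap. Ezh2 to Eed overlapped, at 0.538 and 0.572. Among the histone-binding subunits, Rbbp4 to Rbbp7 was 0.261 ± 0.010 in control and 0.322 ± 0.022 in Prmt5-null, without overlap between libraries. These ratios of transcripts are given as descriptions without a test, since the pairs were chosen with the gene values known, and they do not measure subunits in the complex.

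The splicing tables, made with rMATS, list for each gene the most significant event of each type that differed between genotypes, so a listed difference is a description of how it was selected and was not tested again. Levels are fractions of reads that include the variable sequence, as 4 values per genotype whose libraries are not named. Of the 10 PRC2 genes, 4 had an event whose level differed by at least 0.1 (Ezh2, Mtf2, Phf19 and Eed). The level was counted either from all reads of the event or from reads across junctions alone. Of 13300 genes with a mean normalized count above 50, 11.4% had such an event. With at least 20 reads in each library, 3 of 10 remained, without Eed, where 7.71% of these genes did. The PRC2 genes had genotype means of at least 1203, far above that floor of 50. Shares among genes at their own level were not computed, so these shares are not matched for read depth. Ezh2 and Mtf2 each had a skipped exon and an alternative donor, Phf19 a retained intron and Eed a skipped exon.

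The sequences of the variable parts of Ezh2 and Mtf2 are shown because their content sets what each form would encode. They are GENCODE transcript sequences on GRCm38, 5′ to 3′ on the strand of the gene. Capitals mark cysteine codons in the frame of Ezh2-201 in the first, the bases GTGAGC that follow the upstream donor in the second, and the first in-frame stop in the third.
Ezh2 skipped exon, chr6:47541845-47541970, minus strand: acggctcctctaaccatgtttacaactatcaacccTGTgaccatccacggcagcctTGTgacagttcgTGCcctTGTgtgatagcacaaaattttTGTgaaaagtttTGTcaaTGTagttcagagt
Ezh2 donor extension, chr6:47576536-47576562, minus strand: GTGAGCtcattgcgcgggactagggag
Mtf2 skipped exon, chr5:108069162-108069363, plus strand: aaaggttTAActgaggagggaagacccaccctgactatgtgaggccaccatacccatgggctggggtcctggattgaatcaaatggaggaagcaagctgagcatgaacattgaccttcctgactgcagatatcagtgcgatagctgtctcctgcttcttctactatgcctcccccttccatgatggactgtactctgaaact

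The skipped Ezh2 exon is a coding exon of 126 bases in the protein-coding transcripts Ezh2-201, Ezh2-203 and Ezh2-204 and is absent from the protein-coding Ezh2-202. Its inclusion level was 0.695, 0.672, 0.701 and 0.696 in control and 0.624, 0.576, 0.53 and 0.575 in Prmt5-null iGBs, a mean difference of -0.11 over 2751 reads in all. Every Prmt5-null value was below every control value, so a larger share of Ezh2 transcripts lacked the exon. The exon spans 42 codons without a shift of frame, and no stop codon arises before the end of Ezh2-201 when it is removed. It encodes part of the cysteine-rich CXC region that lies ahead of the catalytic SET domain. Of its 41 whole codons, 7 (17.1%) encode cysteine, against 3.98% of the other codons of Ezh2-201.

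The donor event of Ezh2 lies near the start of its coding sequence, where a downstream donor adds 27 coding bases, or 9 codons, to the exon. The longer form was included at 0.814, 0.741, 0.796 and 0.793 in control and at 0.885, 0.877, 0.897 and 0.886 in Prmt5-null iGBs, a mean difference of 0.10 over 2016 reads. All Prmt5-null values were above all control values, so use of the upstream donor was lower in Prmt5-null iGBs. Transcripts Ezh2-201, Ezh2-202 and Ezh2-203 hold the longer form, and Ezh2-204 and Ezh2-205 the shorter. The upstream donor reads tctGTGAGC, with intron bases in capitals, and matches the donor consensus, CAG at the end of the exon and GTAAGT at the start of the intron, at 4 of 9 positions. A donor could be read only where an annotated exon of some transcript also covers its intron bases. Of 24301 such GT donors in genes with a mean above 50, 6.30% matched at 4 positions or fewer and 4.33% read GTGAGC. Donors outside such exons were not read, so these are not shares of all donors of these genes.

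Both Mtf2 events involved a single exon of 202 bases that is an exon of the non-coding transcript Mtf2-205 and lies in none of the annotated protein-coding ones. Its inclusion level was 0.439, 0.393, 0.333 and 0.324 in control and 0.266, 0.264, 0.197 and 0.2 in Prmt5-null iGBs, a mean difference of -0.14 over 2204 reads, with all Prmt5-null values below all control values. Read on from the annotated start codon, which lies 5 coding bases upstream, the exon meets a stop at codon 5. The joint of the flanking exons without it meets none within the next exon. The gene total of Mtf2 did not differ by test, as given above.

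The Mtf2 exon ends at the donor actGTGAGC, which matches the consensus at 4 of 9 positions and has the same intron bases as the upstream Ezh2 donor. The second Mtf2 event extends the exon from this donor by 160 bases to the donor ataGTAAGT, which matches at 6 of 9. The extension was used at 0.277, 0.325, 0.354 and 0.423 in control and at 0.393, 0.632, 0.355 and 0.577 in Prmt5-null iGBs. These values overlapped and rested on 631 reads, with a mean difference of 0.14. In both genes the share of transcripts that used the GTGAGC donor was lower in Prmt5-null iGBs, although for the second Mtf2 event the genotypes overlapped. The skipped Ezh2 exon, with the most reads of these events, ends at a different donor, agtGTAAGT, which matches at 6 of 9. Of the donors that could be read within an annotated exon, 66.3% matched at 6 positions or fewer.

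The retained intron of Phf19 (chr2:34911246-34911616, minus strand) has 371 bases, a donor that reads cggGTGAGT and matches at 7 of 9, and an acceptor that reads TCTTTGCCTCAGgtc, intron bases again in capitals. It was retained at 0.125, 0.091, 0.223 and 0.046 in control and at 0.1, 0.343, 0.289 and 0.115 in Prmt5-null iGBs, over 382 reads, and the genotypes overlapped. The mean difference was 0.09 with all reads and 0.14 with junction reads alone, so that Phf19 reached 0.1 on junction reads only. The Eed event, a coding exon of 126 bases at chr7:89970306-89970431, rested on 45 reads over the 8 libraries, with as few as 1 in a library. Its levels overlapped, at 0.332, 0.427, 0.498 and 1 in control and 1, 1, 0.598 and 0.665 in Prmt5-null iGBs. The mean difference of 0.25 rested on these few reads and was not tested.

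**Figure D4:**
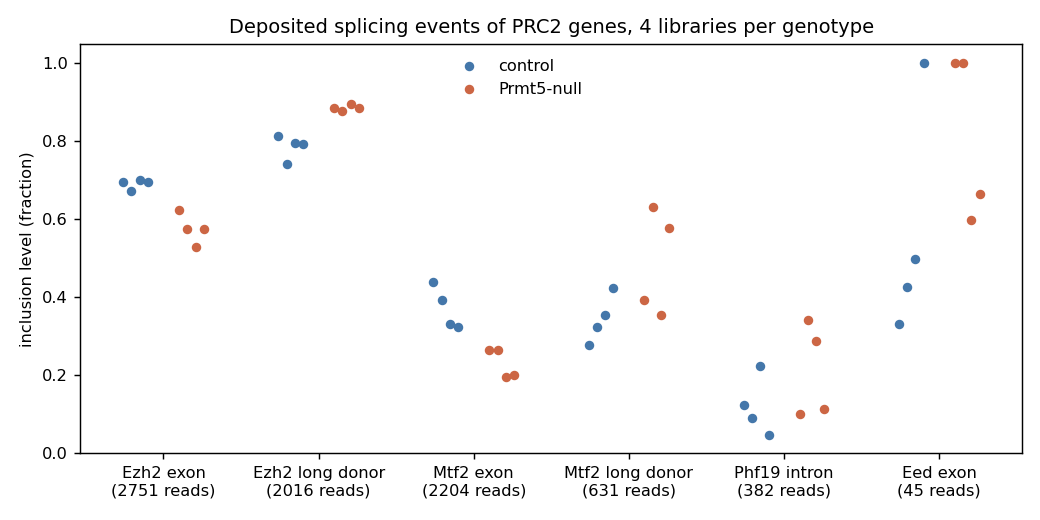
Inclusion level, as a fraction, of each deposited splicing event of a PRC2 gene, with 4 points per genotype in the order deposited and the reads behind each event in brackets. Prmt5-null points lie below control for the Ezh2 and Mtf2 exons and above control for the longer Ezh2 donor form, and overlap with control in the other 3 events.

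Around PRC2, the other genes of the Polycomb system were taken from lists. At an adjusted p below 0.05 in limma, 6.51% of all tested genes were higher and 7.33% lower. These shares stand beside the counts of each list below. Of 6 further PRC2-associated genes, 4 could be tested and all 4 had lower estimates. Of these, only E130012A19Rik, now named Epop, passed, a subunit that links PRC2 to Elongin. Epop had 1170, 892, 1000 and 1055 normalized counts in control and 793, 610, 786 and 753 in Prmt5-null libraries, with no overlap and a log2 fold change of -0.49 (SE 0.11, adjusted p = 0.0153 from limma). Lcor, the most abundant of the list over all 8 libraries though not in control, had a log2 fold change of -0.11 with a limma adjusted p of 0.581.

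PRC1 ubiquitinates histone H2A, and some of its forms bind the PRC2 mark. Of 25 genes of PRC1, 1 was higher and 1 was lower at an adjusted p below 0.05. Among all tested genes 6.51% were higher and 7.33% lower. Rnf2, the main ubiquitin ligase of PRC1, was higher by a log2 fold change of 0.31 (adjusted p = 0.0327 from limma), from 2534 to 3130 normalized counts on average. Cbx7, a chromodomain protein that reads the mark, fell from 1585 to 961 normalized counts (log2 fold change -0.71, adjusted p = 0.00496 from limma). Usp7, the most abundant of the list, had a log2 fold change of -0.02.

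Of the H3K27 demethylases and subunits of the H2A deubiquitinase, 6 of 7 could be tested and 1 passed in limma and in edgeR, while DESeq2 gave 3. Kdm6b, which removes the mark, had 387, 288, 411 and 473 normalized counts in control and 197, 305, 148 and 193 in Prmt5-null libraries. PRMT5-10618 overlapped with CTRL-10370, and the log2 fold change was -0.91 (SE 0.21, adjusted p = 0.0151 from limma). Asxl1, the most abundant of this list, had a log2 fold change of 0.31 and did not pass in limma (adjusted p = 0.0564) but did in DESeq2 (0.0343), as did Bap1 (log2 fold change 0.22, adjusted p = 0.0744 from limma and 0.0383 from DESeq2). Of 11 methyltransferases of marks that counter PRC2, on lysines 4 and 36 of histone H3, limma, edgeR and DESeq2 each found 0 at an adjusted p below 0.05, and limma found 0 at an unadjusted p below 0.05. Nsd1, the most abundant, had a log2 fold change of 0.19.

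**Figure D5:**
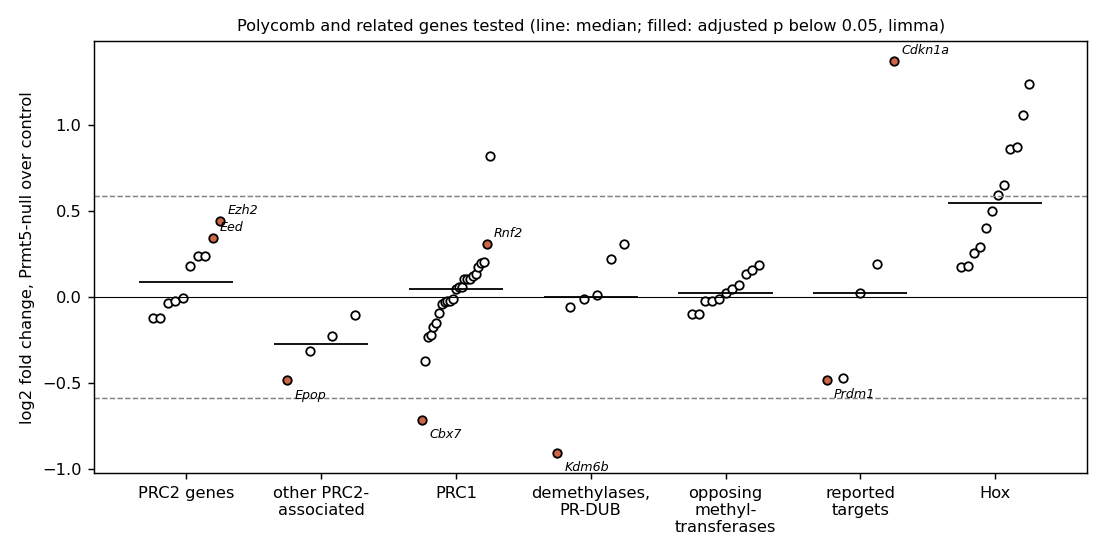
Log2 fold change, Prmt5-null over control, of every tested gene of PRC2 and of 6 related lists; each point is a gene, lines are medians, filled points have an adjusted p below 0.05 in limma and dashed lines mark 1.5-fold. Cbx7, Kdm6b and Cdkn1a are the filled points beyond 1.5-fold, and all 12 Hox points lie above 0 but none is filled.

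By gene set enrichment in these iGBs, the paper reports a modest upregulation of part of the genes that EZH2 represses in germinal center B cells. That gene set was not examined here. Of 5 genes described elsewhere as targets of Ezh2 in B cells or in the cell cycle, 1 rose and 1 fell at an adjusted p below 0.05 in limma. Cdkn1a, a cyclin-dependent kinase inhibitor that p53 also induces, had 662, 452, 695 and 572 normalized counts in control and 1367, 1740, 1267 and 1784 in Prmt5-null libraries (log2 fold change 1.37, adjusted p = 0.000225 from limma). Prdm1, the regulator of plasma cell fate, fell from 1187 to 851 normalized counts (log2 fold change -0.48, adjusted p = 0.0428 from limma). The genotypes overlapped for Prdm1, with PRMT5-10771 at 998 above CTRL-10370 at 944 normalized counts. Cdkn2a, long known as a Polycomb target, had a log2 fold change of -0.47 with a limma adjusted p of 0.0855, and Irf4, the most abundant of the list, one of 0.19 with 0.134. Irf4 and Cdkn1a made 2 of 5 genes with all Prmt5-null libraries above all control libraries, which 9.67% of all tested genes showed. In the other direction, 0 of 5 had all below, which 10.2% showed.

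Hox genes, classical Polycomb targets, were at low levels. Of 38 genes, 12 passed the filter on low values, all 12 had higher estimates and 0 passed at an adjusted p below 0.05 by limma, edgeR or DESeq2, with 4 at an unadjusted p below 0.05 by limma. The median log2 fold change of these 12 was 0.55, and a gene at this level could pass the filter through the genotype in which it was higher. The summed level of all 38 ran from 279 to 362 normalized counts in control and from 423 to 601 in Prmt5-null libraries. Hoxb4, the most abundant, had a log2 fold change of 0.29. Hoxb3, which did not pass the filter, had the opposite direction, at 8.62 to 14.2 normalized counts in control and 2.16 to 7.41 in Prmt5-null libraries. The estimates of the 8 tested fibroblast markers had the same sign as those of the 12 tested Hox genes, and their part in this result was not tested.

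Ezh2 and Eed are genes of dividing cells, so a list of 16 proliferation genes was set beside them. In limma none rose and 2 fell at an adjusted p below 0.05, Top2a with a log2 fold change of -0.35 (adjusted p = 0.0221 from limma) and Mcm7 with -0.26 (adjusted p = 0.0451 from limma), and the median of the list was -0.05. DESeq2 gave 6 of the 16, of which Mcm5 (log2 fold change 0.19) and Tyms (0.28) were higher, and edgeR gave 1. Among all tested genes limma found 6.51% higher and 7.33% lower. The part of cell division in the levels of Ezh2 and Eed was not tested. Among genes that mark B cell states, Fas rose (log2 fold change 0.47, adjusted p = 0.00504 from limma) and S1pr2 fell (-0.71, adjusted p = 0.00486 from limma) of 5 germinal center genes, and Xbp1 (-0.45, adjusted p = 0.0305 from limma) fell with Prdm1 of 5 plasma cell genes. The genotypes overlapped for Xbp1 as for Prdm1. By estimate alone 2 of the 5 plasma cell genes were higher and 3 lower, and Irf4 was higher without overlap. Of 6 B cell genes, 1 changed, Cd79a, with a log2 fold change of -0.74 (adjusted p = 0.000327 from limma). Of 6 myeloid genes 4 could be tested and 0 passed by limma, edgeR or DESeq2, with 0 at an unadjusted p below 0.05, and of 6 T cell genes Lck alone could be tested and fell by 0.94 on the log2 scale.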

How the data were processed

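RNA from the elutriated B cells of 4 Prmt5-null and 4 control cultures was depleted of ribosomal RNA and sequenced in pairs with a stranded kit. Per the submitters' processing notes, the authors used Trimmomatic 0.32, STAR 2.3.0e on GRCm38, featureCounts 1.4.4 on Ensembl genes and DESeq2 1.14.1, and they deposited a normalized signal, each count divided by the size factor of its library. The strand setting of the counting is not given in the sources used here. Only uniquely mapped reads were counted, so overlapping genes and genes with near-identical copies are uncertain. The authors ran rMATS on untrimmed reads and deposited inclusion levels and reads, with p-values and differences of their own that were not used.

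All deposited values came out as whole reads (100%, within 0.01 of a read), which gave the depth. Genotypes were compared with limma 3.58.1 in R 4.3.3 (trend, log2(normalized count + 1), mean of at least 10, Benjamini-Hochberg over 16250 genes). Fold changes are on this scale, which understates changes of low genes. Each limma p-value sets the difference between genotypes against the spread between libraries, 4 per genotype. That spread is drawn toward a trend over all genes tested. Recovered reads were also fitted with edgeR 4.0.16 and with DESeq2 1.42.0. The fits were tested on simulated counts with known changes, the same relative spread for every gene and no batch. A change as small as that of Eed was not simulated. Each donor was compared with the consensus position by position.

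The 10 genes and the lists were chosen with earlier results of these data known, and 2 genes of the lists are not reported here. From each other list the text names up to 4 genes at an adjusted p below 0.05 and the most abundant gene. Bap1, Cdkn2a, Hoxb3, Lck, Mcm5, Tyms, Uty and the markers Cd3e and Postn were named after their values were seen. Genes most alike Ezh2 over libraries are not given, because the libraries fall into 2 clusters by genotype. Alternatives changed the pseudocount (0.5 or 5), the filter (none, or a mean above 50), normalization, trend, tool, thresholds, libraries and, in 18 placements, a block for the study's 2 experiments, which no label ties to a library. For splicing they took junction reads alone, at least 20 reads or a difference of at least 0.25.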

Additional observations from a re-analysis of the deposited data

Results flagged for a closer look

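In 5 of 32 sets of 4 libraries, 1 library lay far from the other 3 by Dixon's test, and chance alone gives about 1 in 20. In Prmt5-null iGBs these were Ezh2 in PRMT5-10618 (5866 normalized counts, the lowest), Ezh1 in PRMT5-10770 (1222, the lowest) and Rbbp4 in PRMT5-10770 (20759, the highest). In control iGBs they were Suz12 in CTRL-10596 (7098, the lowest) and Mtf2 in CTRL-10597 (6426, the highest). Ezh2 in PRMT5-10618 still lay above every control library, and no inclusion level of a splicing event stood apart in this way.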

How the results depend on the processing

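Ezh2 stayed below an adjusted p of 0.05 in all 36 alternatives and Eed in 35, the exception being the fit without the 2 libraries highest in fibroblast markers, a choice made after seeing the data, which left 1 of the 10 genes at an adjusted p below 0.05 and 1 of the other Polycomb genes called at 1.5-fold. Among the 10 genes, 348 of 360 fits kept direction and side of the threshold. At 1.2-fold 2 PRC2 genes and 4 other Polycomb genes (2 at 1.5-fold) were called, and at an adjusted p below 0.01 1 of the latter. Estimates near 0 changed sign: Mtf2 to 0.0059 with quantile normalization, Suz12 to 0.018 without the same 2 libraries and, with 1 library left out, Mtf2 between -0.041 and 0.043, Jarid2 between -0.11 and 0.061 and Suz12 between -0.10 and 0.0064. Ezh1 passed only without PRMT5-10770 and Aebp2 only without CTRL-10597. An inclusion difference of at least 0.25 left 1 gene, Eed. By longest transcripts Ezh2 to Ezh1 in control was 5.81. No paired analysis was possible because the labels give replicate numbers that the genotypes do not share. With the experiment as a block in 18 placements, 2 PRC2 genes passed in each. The causes of these changes were not tested. With 4 libraries per genotype, the intervals of all 10 genes but Ezh2 lay within 1.5-fold.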
